A study of Mus musculus with 3 samples.

Results

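The 279 intergenic H3K27me3 regions of wild-type mouse skeletal muscle are those of 399 deposited regions that lay in the nuclear genome, outside every gene body of the GENCODE vM21 annotation, with a midpoint over 1000 bp from every protein-coding transcript start. Another 118 nuclear regions lay in or near genes and 2 rows lay on the mitochondrial genome. The regions came from chromatin immunoprecipitation with sequencing (ChIP-seq) of nuclei from muscle of C57/Bl6J mice of WT genotype, aged 10 to 12 weeks, with an antibody to H3K27me3 (Active Motif, 39133). The series also holds a glucocorticoid receptor (GR) ChIP-seq list of 3087 peaks from muscle of GR(i)skm-/- mice of the same strain and age, whose title reads as a GR knockout, and an input library of that genotype without a peak list, which was not used here. With 1 library in each group and none repeated, the values describe those libraries. Muscle tissue holds nuclei of several cell types, and the list does not tell which of them gave a region. Read totals are not in the list, so the depth is unknown. Whether the listed regions carry the mark was not tested, since the list is the one readout of this antibody.

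H3K27me3 is trimethylation of lysine 27 of histone H3, placed by Polycomb repressive complex 2 on silenced chromatin and known for broad domains over developmental genes such as the Hox clusters. LINE-1 is the family of autonomous retrotransposons of mammals: an element has a promoter made of repeated monomers in the mouse, followed by one frame for an RNA-binding protein and another for a protein with endonuclease and reverse transcriptase domains. Most copies in the genome are old and cut short, while intact young copies are nearly identical to each other.

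Most of the regions lay on LINE-1 sequence nearly identical to intact copies, and these were centred on a place where the locus differed in length from an intact copy. LINE-1 sequence covered at least 50% of the bases in 241 of 279 regions (86.4%, exact 95% interval 81.8 to 90.2), against 20.5% of 14135 windows of the same width set every 100 kb in intergenic sequence. The following 4 regions show the pattern: they are among the most enriched members lacking 5 to 19, 20 to 39, 80 to 149 and 150 or more bases, each printed beside the intact copy that matched it best. In the region the 10 bases on either side of the break are in capitals, and in the intact copy the bases that the region lacks are in capitals. Sequences are from RefSeq GRCm38, read 5′ to 3′ along the region's plus strand.
Region near Rpe65, chr3:159671282-159671381, plus strand: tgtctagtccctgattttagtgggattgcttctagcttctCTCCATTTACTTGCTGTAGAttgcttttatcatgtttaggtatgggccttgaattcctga
Intact LINE-1 copy, chr16:19737729-19737847, minus strand: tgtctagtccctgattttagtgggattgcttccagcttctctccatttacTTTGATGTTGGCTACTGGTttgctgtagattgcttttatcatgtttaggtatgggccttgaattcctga
Region near Crim1, chr17:76896154-76896253, plus strand: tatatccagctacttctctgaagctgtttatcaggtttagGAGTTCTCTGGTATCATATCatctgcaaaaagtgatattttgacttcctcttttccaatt
Intact LINE-1 copy, chr10:72496820-72496947, minus strand: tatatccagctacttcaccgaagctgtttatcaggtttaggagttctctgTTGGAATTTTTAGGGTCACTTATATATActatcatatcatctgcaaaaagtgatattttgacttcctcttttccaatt
Region near Brinp1, chr4:69414028-69414127, plus strand: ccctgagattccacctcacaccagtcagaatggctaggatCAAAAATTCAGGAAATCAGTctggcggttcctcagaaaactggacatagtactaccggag
Intact LINE-1 copy, chr15:77499472-77499656, minus strand: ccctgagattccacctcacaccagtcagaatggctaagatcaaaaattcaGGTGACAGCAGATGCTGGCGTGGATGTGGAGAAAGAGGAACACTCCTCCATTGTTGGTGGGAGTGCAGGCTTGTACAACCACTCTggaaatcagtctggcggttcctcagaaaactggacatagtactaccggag
Region near Rpia, chr6:70285414-70285487, plus strand: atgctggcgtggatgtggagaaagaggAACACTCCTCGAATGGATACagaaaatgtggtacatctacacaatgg
Intact LINE-1 copy, chr14:122623001-122623299, minus strand: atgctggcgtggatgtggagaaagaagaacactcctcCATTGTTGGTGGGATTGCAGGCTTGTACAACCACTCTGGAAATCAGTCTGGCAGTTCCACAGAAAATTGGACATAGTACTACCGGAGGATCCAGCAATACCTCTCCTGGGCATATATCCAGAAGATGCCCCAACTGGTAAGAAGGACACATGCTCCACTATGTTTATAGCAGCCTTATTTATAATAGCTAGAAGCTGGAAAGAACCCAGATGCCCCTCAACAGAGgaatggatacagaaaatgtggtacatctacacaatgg

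The printed flanks were nearly identical. The region near Rpe65, which encodes the retinoid isomerase of the retinal pigment epithelium, lacked 19 bases, and 99 of the 100 flanking bases were alike. The region near Crim1, a transmembrane protein of developing tissues, lacked 28 bases with 97 flanking bases alike. The region near Brinp1, a gene of the nervous system, lacked 85 bases with 99 flanking bases alike. The region near Rpia, whose enzyme serves the pentose phosphate pathway, lacked 225 bases and had 73 of 74 flanking bases alike. Apart from the stretch in capitals in the intact copies, members and copies thus read as the same element.

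The length difference was measured in every region by matching the 180 bp to each side of the midpoint, starting 20 bp from it, to a library of 1007 intact LINE-1 copies. In 247 regions both sides matched 1 intact copy, with a median identity of 99.2% (interquartile range 98.6 to 99.7). A length difference of at least 5 bp was found in 246 of these 247. In 236 (95.5%, exact 95% interval 92.2 to 97.8) its break lay within 20 bp of the midpoint. The same difference at the same distance was found in 10.0% of the 2391 intergenic LINE-1 windows of the fixed grid that matched a copy. Among 517 grid windows whose sides were at least 98% identical to an intact copy, as most members were, it was found in 7 (1.35%). At places 1000 bp to the left and right of the members' midpoints it was found in 9 of 394 (2.28%, 1.05 to 4.29). The members therefore differed from grid windows of similar identity and from their own surroundings by far more than counting error, to which these intervals are limited.

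**Figure D1:**
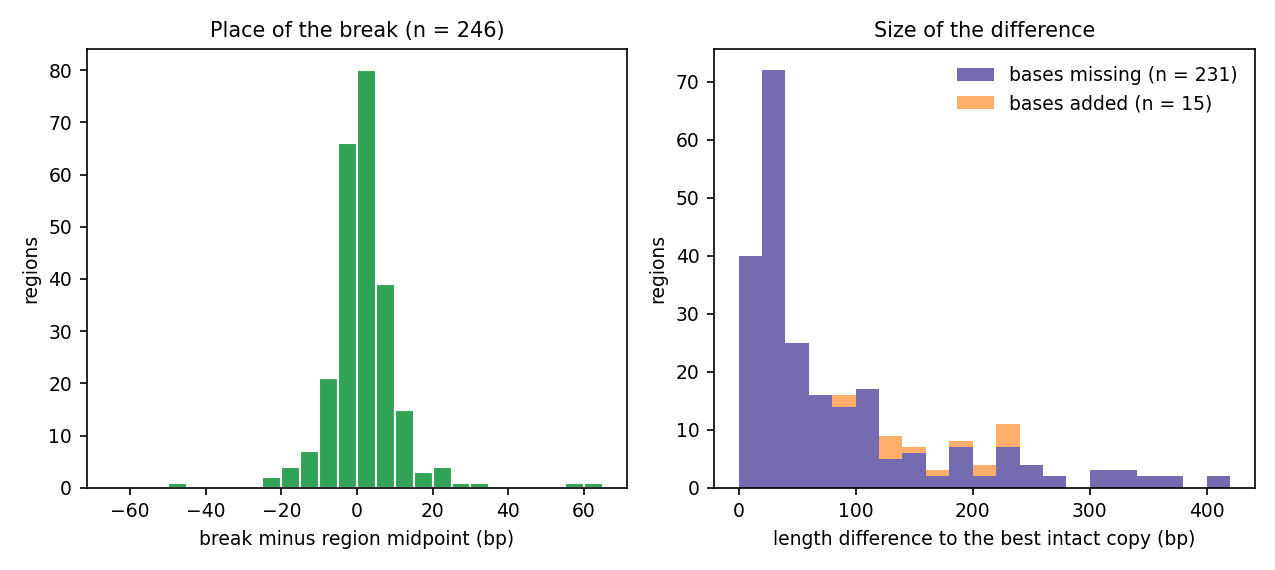
Left, the number of regions by the distance of the break from the region midpoint (bp, 5 bp bins, n = 246). Right, the number of regions by the size of the length difference (bp, 20 bp bins), stacked by bases missing (n = 231) and added (n = 15). The breaks pile up at the midpoint, with a median distance of 4 bp, and most differences are missing stretches under 108 bp, the 75th percentile.

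Bases were missing at the locus in 231 regions and added in 15. The missing stretch had a median of 45 bases (interquartile range 22.5 to 108, range 8 to 409). Break places that fitted equally well spanned a median of 2 bases, with a range of 0 to 9. The break divided the regions evenly: the median distance was 129.5 bp from the left edge of the region to the break and 126.5 bp from the break to the right edge. The added stretches were 90 to 238 bases long. In 8 of those 15 regions the sequence at the midpoint consisted of 31-mers (stretches of 31 bases) with over 100000 positions each in the genome. Of the 2391 matched grid LINE-1 windows, 315 lacked bases and 304 had bases added. Of the 517 with sides at least 98% identical, 8 lacked bases and 4 had bases added.

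The midpoint was also the place where the sequence was unique. Within 10 bp of the midpoint, 31-mers had a median of 1 position in the genome, and 69.5% (left) and 75.4% (right) of them occurred once. At 60 to 100 bp from the midpoint the medians were 6298 and 6776 positions, and 1.85% and 2.36% occurred once. A 31-mer found once lay within 20 bp of the midpoint in 243 of 279 regions (87.1%, 82.6 to 90.8). With 50-mers the share found once was 86.0% and 86.3% within 10 bp of the midpoint, and 4.27% and 4.18% at 60 to 100 bp. Unique sequence thus sat at the centre of regions whose sides were repeated many times over. The part of this in the calling of the regions was not tested.

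**Figure D2:**
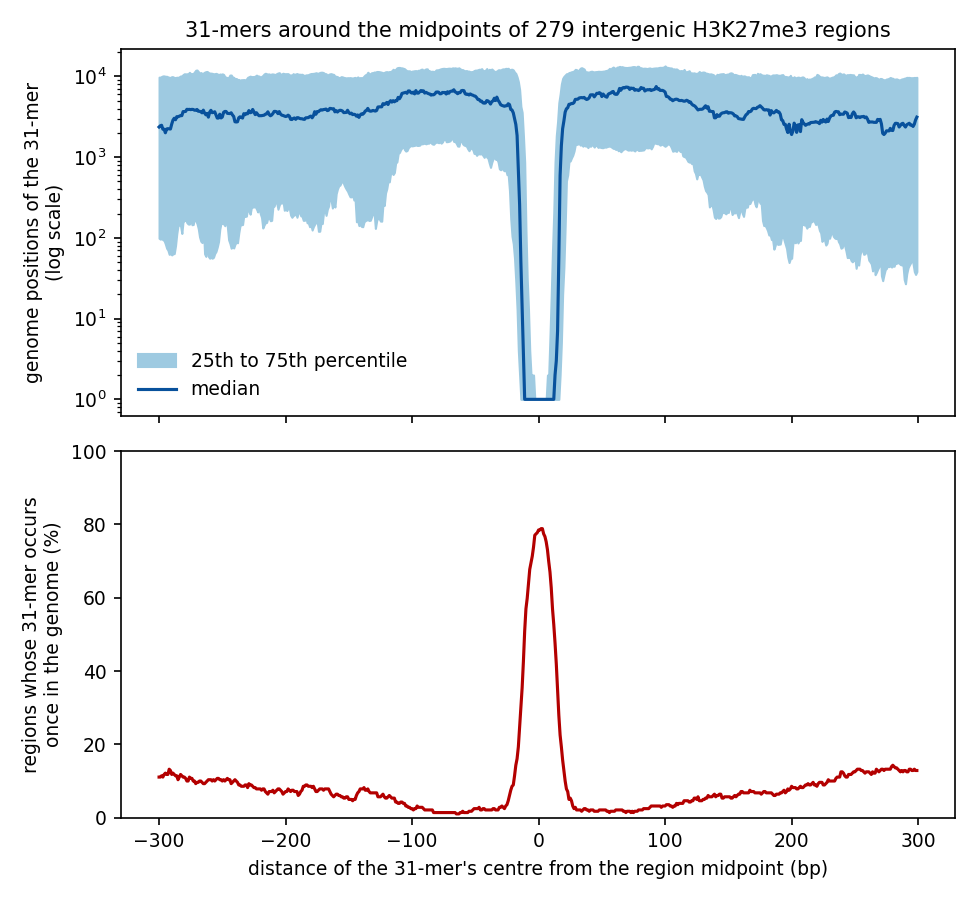
Top, genome positions of the 31-mer centred at each distance from the region midpoint (log scale), as the median and the 25th to 75th percentile over 279 regions. Bottom, the percentage of regions whose 31-mer at that distance occurs once in the genome. The median falls to 1 position within 10 bp of the midpoint, where most 31-mers occur once.

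Breaks were spread along the LINE-1 element. Positions were counted from the first base of the 3900 bp open frame (1300 codons) that holds the reverse transcriptase. The break lay before this frame in 48 regions, in its upstream part (positions 57 to 1932) in 61, in its downstream part (positions 2005 to 3890) in 99 and after it in 38. Fold enrichment, the authors' ratio over background, had medians of 10.8, 13.0, 14.5 and 12.1 in that order, with overlapping interquartile ranges. In the 619 grid LINE-1 windows with a length difference, the breaks numbered 187, 57, 91 and 284 in the same order of parts. Most breaks of the members thus lay inside the frame, and most of the grid windows outside it. The matched grid windows were also more diverged from intact copies: their sides had a median identity of 91.1%, against 99.2% in the members. Intact copies were taken with 2000 bases before the frame and 900 after it, so the parts are of unequal length. LINE-1 ran along the plus strand in 120 of the paired regions and along the minus strand in 127.

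Many members shared sequence. Joined at 80% identity over 80% of the shorter region, 183 of 279 regions (65.6%) fell into 40 groups. This share was not computed for grid LINE-1 windows, so it is a description. Most regions were centred on their break, so breaks within a group lie close together largely by the joining rule. The largest group held 20 regions on 12 chromosomes, with breaks at positions 4107 to 4334, after the frame, and folds of 6.79 to 20.5. The second held 17 regions on 9 chromosomes, with breaks at positions 3276 to 3675, near the end of the frame. Its folds ran from 7.75 to 39.5 and included the strongest region of all, near Vmn2r121. A group of 6 regions had its breaks upstream, at positions -1997 to -1786, and its members had bases added (median length difference -176). Those breaks lie near the start of the intact copies as taken, and the sides were 83.3 to 95.6% identical to a copy. The sequence at the midpoint had 849195 genome positions near Gm10330, Zfy1 and Pcdh17. It had 4 near Tro, 39 near Prr30 and 30 near Spata31. Whether this group holds LINE-1 with added bases or another repeat was not tested. Enrichment thus varied widely within a sequence group.

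The pattern extended past LINE-1. Of the 32 regions without a matching pair of sides, 16 had both sides at 727 to 1897 other places in the genome, with a spacing of the sides that differed by 5 bp or more at no fewer than 90% of those places and by 1 size at no fewer than 50%. The commonest difference was 12 to 161 bp. This rule, which also asks for 100 or more other places, was chosen after the values were seen. All 16 were among the 22 regions of this kind that lay in soft-masked repeats outside LINE-1 (72.7%, 49.8 to 89.3). Of 492 grid windows in such repeats, 7 (1.42%, 0.574 to 2.91) met the same rule, and among the 203 with 100 or more other places the share was 3.45% (1.40 to 6.98). The region near Olfr497, an odorant receptor gene, had its sides 22 bp farther apart at 1426 of 1435 other places. The region near Cdh8, a classical cadherin of neurons, had them 12 bp farther apart at 1524 of 1532. By either search 262 of 279 regions (93.9%, 90.4 to 96.4) had a length difference, wherever its break lay. A difference of 5 bp or more, wherever its break lay, was found in 25.9% of the 2391 matched grid LINE-1 windows. Among the 517 with sides at least 98% identical the share was 2.32%.

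The 17 remaining regions were weak. Their fold enrichment had a median of 6.42 (range 3.40 to 13.3), against 12.6 (5.10 to 39.5) in the 262 others. They included 4 regions of a repeat array near H60c, a ligand of the NKG2D receptor, 2 of them satellite-like, and the 3 weakest members of all. These were near the predicted gene Gm10800 (3.40-fold), near Rab10, a vesicle transport GTPase (3.84-fold), and near the predicted gene Gm8797 (4.65-fold). In the H60c array, 251 to 300 of the 303 to 351 other loci had the spacing of the member to within less than 5 bp. The region near Rchy1, a ubiquitin ligase gene, had it, by the same measure, at 750 of 764 loci. Near Tmem125, a gene for a membrane protein, lay the longest member, 1553 bp wide, with no other locus that held both of its sides. The rest included 3 regions classed as LINE-1 whose sides matched no single copy (near Emp1, Pkdcc and Gm20869). The sequence at the midpoint had 849195 genome positions near Emp1 and near Gm20869, and 24520 near Pkdcc. LINE-1 was called ahead of the tandem class, and whether these regions are tandem repeats was not tested. The others were 1 region whose sides kept the spacing of its copy (near Oxgr1), 2 tandem repeats (near Gm14496 and Adgre5), and regions near Chl1 and Zpld1. The regions near Zpld1, Gm20869 and Gm14496 differed in spacing at 90% or more of their other places. They missed the rule because too few places shared 1 size. The commonest difference was found at 1093 of 2905 places for Zpld1 and 62 of 2311 for Gm20869. For Gm14496 the commonest difference was 0, the spacing of the member itself, at 296 of 5035.

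Strength varied by an order of magnitude. Fold enrichment ranged from 3.40 to 39.5 with a median of 12.2 (interquartile range 9.03 to 18.04). The -log10 q of the authors' list had a median of 20.4 (2.89 to 113), and 142 regions reached 20. There were 17 regions over 30-fold and 88 under 10-fold. Widths were narrow and alike: 260 of 279 regions were 235 to 280 bp wide, around a median of 254 bp. The 118 nuclear regions in or near genes had a median fold of 10.8 and a median width of 256 bp, so the intergenic regions stood apart in neither.

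The strongest members all lay on LINE-1. The first was chrX:124111491-124111765 with a fold of 39.5, located 24.3 kb from the start of Vmn2r121, a pheromone receptor gene. The second was chr4:69413937-69414213 with a fold of 38.3, at 460 kb from Brinp1. The third was chr4:88055058-88055334 with a fold of 35.3, at 21.8 kb from Mllt3, which encodes a subunit of the super elongation complex. Next came regions near Cntnap5b, a neurexin-family adhesion gene (33.3-fold), Spinkl, a protease inhibitor-like gene (33.2-fold), and Tdrd3, a Tudor domain gene (32.6-fold). Regions near Zfp946 (32.3-fold) and Zfp990 (30.9-fold), both zinc finger genes, followed with a pair near Ndufa4 (31.7 and 31.4-fold), a gene of the respiratory chain. The regions near Rpia, Mut (methylmalonyl-CoA mutase), Olfr159 (an odorant receptor), Pax1 (a factor of the axial skeleton) and Prim2 (a primase subunit) had folds of 30.95, 30.9, 30.7, 30.6 and 30.3. All 15 lacked bases relative to an intact copy, from 33 near Spinkl to 225 near Rpia.

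Enrichment was lowest at the smallest differences and at added bases. The median fold was 9.59 in 40 regions lacking 5 to 19 bases, 13.98 in 72 lacking 20 to 39, 16.9 in 41 lacking 40 to 79, 16.5 in 40 lacking 80 to 149 and 13.6 in 38 lacking 150 or more. It was 7.35 in the 15 regions with added bases. Ranges overlapped: the region near Rpe65 lacked 19 bases and reached 28.6-fold. Across the 231 regions lacking bases, Spearman's rho between fold and the number of bases missing was 0.33 and Pearson's r 0.10. These regions share 1 library and many share sequence, so the values are descriptions. For fold and the identity of the sides to the intact copy rho was 0.31 and r 0.25 over 247 regions. For fold and width the coefficients parted, with a rho of 0.62 and an r of -0.04 over all 279. For fold and the distance to the nearest protein-coding start they were 0.10 and 0.07.

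**Figure D3:**
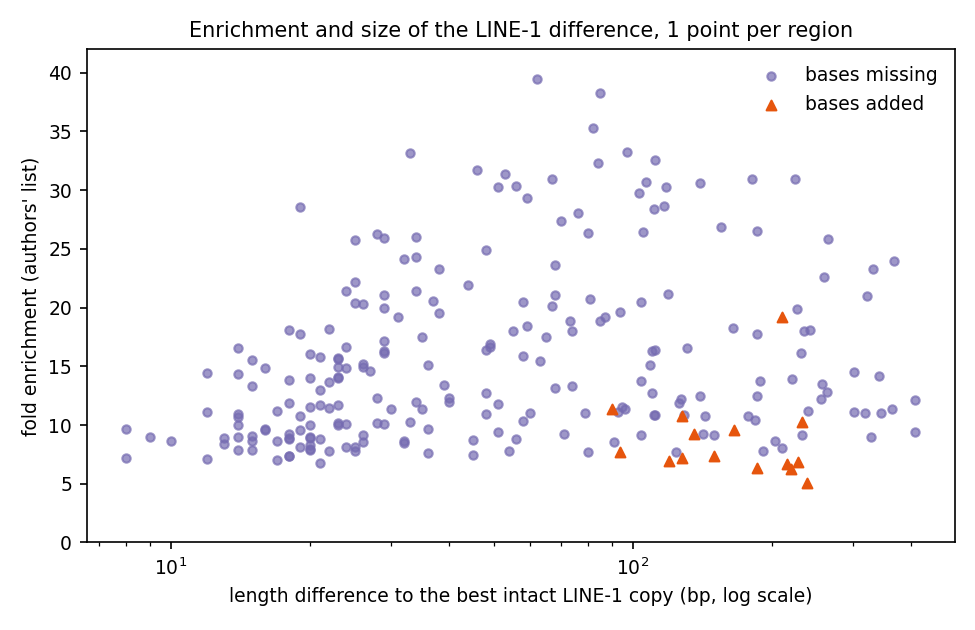
Fold enrichment in the authors' list against the length difference to the best intact LINE-1 copy (bp, log scale), 1 point per region: circles, 231 regions lacking bases; triangles, 15 regions with added bases. Most points under 20 bp lie low, with a median of 9.59, and the highest points lie between 33 and 225 bp.

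The regions were far from protein-coding genes, somewhat farther than intergenic sequence as a whole. The distance from midpoint to the nearest protein-coding start had a median of 159 kb (interquartile range 45.9 to 474 kb), against 115 kb (30.3 to 338 kb) over all 1412 Mb of intergenic bases under the same rule. A start lay over 500 kb away for 63 regions (22.6%, 17.8 to 27.9), against 16.3% of intergenic bases, and within 10 kb for 16 (5.73%, 3.31 to 9.15), against 10.2%. In both cases the background was outside the counting interval. LINE-1 itself is set apart from genes: the 2896 LINE-1 grid windows had a median distance of 135 kb, and the 517 nearly intact ones 149 kb. For the 241 regions on LINE-1 the median was 178 kb. Of the 16 regions within 10 kb of a start, 12 were LINE-1, the strongest near Spinkl (33.2-fold) and Dsg1a, a desmosomal cadherin of skin (26.4-fold).

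**Figure D4:**
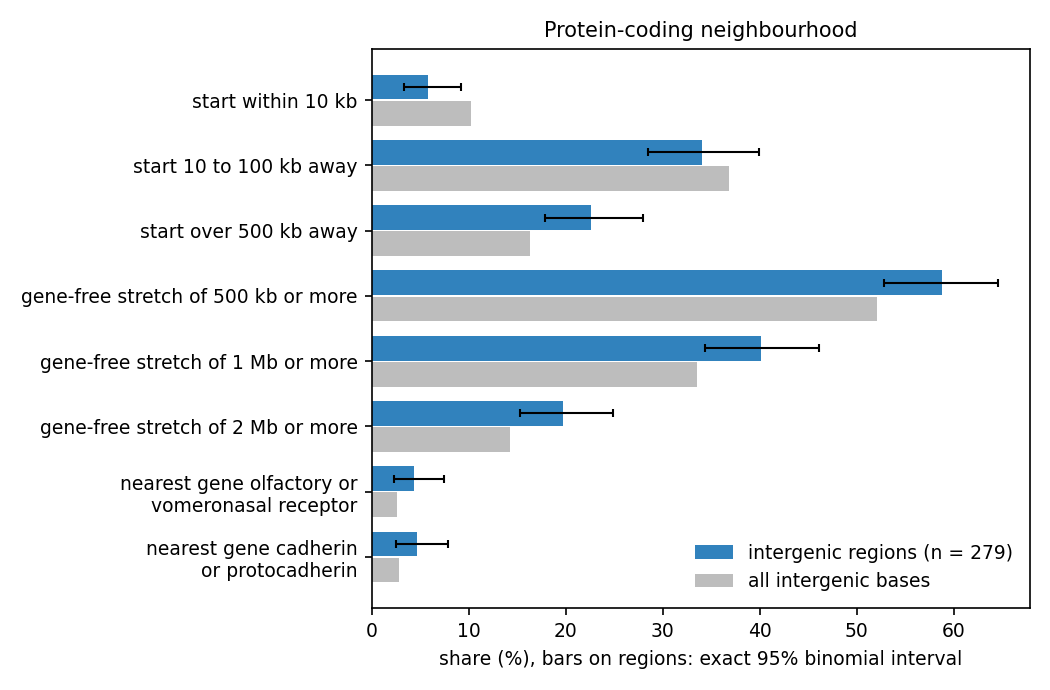
Share (%) of the 279 regions (blue, with exact 95% binomial intervals) and of all intergenic bases (grey) by distance to the nearest protein-coding start, by length of the stretch free of protein-coding genes, and by the family of the nearest gene. Regions exceed intergenic bases in the longest stretches (19.7% against 14.2% at 2 Mb or more) and fall below them within 10 kb of a start (5.73% against 10.2%).

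Gene-poor stretches held more of the regions than of intergenic bases. The stretch free of protein-coding gene bodies around a region had a median length of 716 kb, against 548 kb over intergenic bases and 726 kb in the nearly intact LINE-1 windows of the grid. Stretches of 500 kb or more held 164 regions (58.8%, 52.8 to 64.6; 52.1% of bases), those of 1 Mb or more 112 (40.1%; 33.5%) and those of 2 Mb or more 55 (19.7%, 15.2 to 24.9; 14.2%). Of these 55, 50 were LINE-1. The median number of protein-coding genes with a start within 500 kb was 2, against 3 for intergenic bases.

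The 5 longest gene-free stretches that held a region spanned 3843 to 4542 kb, and the longest over all intergenic bases was 4668 kb. The longest with a region, 4542 kb between Pcdh20 and Pcdh9, both protocadherins, held 3 regions with folds of 13.7, 12.8 and 8.10. A 4420 kb stretch between Olfm4, an olfactomedin of intestinal crypts, and Pcdh17 held 1 region of 20.2-fold. A 4283 kb stretch between Cntnap5b and Cdh20, a cadherin, held regions of 33.3 and 18.4-fold. Between Slc39a10, a zinc importer, and Tmeff2, a membrane protein of the nervous system, 4008 kb held regions of 7.87 and 7.64-fold. The fifth, 3843 kb between Sel1l, of endoplasmic reticulum degradation, and Flrt2, an adhesion protein, held 1 of 17.5-fold. Folds in these 5 stretches ran from 7.64 to 33.3. The 279 regions lay in 240 different stretches, with at most 4 in 1.

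Gene families were taken as lists of gene names, so relatives under other names are not counted. Among them, cadherins, neuronal adhesion genes and chemosensory receptors were each the nearest neighbour of 12 or 13 regions. A cadherin named Cdh or a protocadherin named Pcdh was the nearest gene to 13 regions (4.66%, 2.50 to 7.84), against 2.79% of intergenic bases. These 13 lay at a median of 1088 kb from it, with folds of 7.20 to 17.7, and included regions near Pcdh7 (17.7-fold), Cdh10 (14.1-fold), Pcdh9 and Pcdh20 (13.5-fold). The related Fat3 (28.7-fold) and Dsg1a lie outside that list. An olfactory or vomeronasal receptor was nearest to 12 (4.30%, 2.24 to 7.39; 2.57% of bases), of which 9 were olfactory and 3 vomeronasal type 2. Both backgrounds lay inside the intervals, so neither share differed from intergenic sequence beyond counting error. The odorant receptor neighbours were close, at a median of 12.9 kb, and included Olfr159, Olfr1305 (27.4-fold), Olfr512 (15.4-fold) and Olfr1009 (15.2-fold). The other vomeronasal neighbours were Vmn2r19 (10.9-fold) and Vmn2r23 (9.77-fold).

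Genes of neuronal adhesion and synapses were nearest to 12 regions (4.30%; 3.49% of bases), led by Brinp1, Cntnap5b, Cntnap5a (25.8-fold) and Cntnap2 (19.5-fold). Ion channels and neurotransmitter receptors of the list were nearest to 4 (1.43%; 2.23%): Htr5a, a serotonin receptor, Gabrg1, a GABA receptor subunit, Kcna4, a potassium channel, and Gria3, a glutamate receptor subunit. The list leaves out others, such as the calcium release channel Ryr3 (9.06-fold) and the tachykinin receptor Tacr1 (14.6-fold). Predicted genes without an assigned name were nearest to 31 (11.1%, 7.68 to 15.4; 14.4%). Their strongest were near Gm4951 (29.7-fold), Gm20821 on chromosome Y (25.8-fold), Gm6121 on chromosome X (20.5-fold) and Gm21833 on chromosome 16 (20.4-fold). Zinc finger genes named Zfp were nearest to 3 regions (1.08%; 1.42% for the Zfp, Zkscan, Zscan and Rsl list), at 28.1 to 32.3-fold, with Zfp608 the third beside Zfp946 and Zfp990. Zinc finger genes under other names included Zfat (26.0-fold) and Zfy1 (9.54-fold). Genes of the list named for multicopy testis genes of the X were nearest to 4 (1.43%; 0.98%): Maged2, Btbd35f1, Mageb18 and, on chromosome 3, Cypt12. That list was read by symbol alone, and whether each gene is multicopy or expressed in testis was not checked.

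Listed families of classic Polycomb targets were nearest to few regions, in shares that did not differ from intergenic sequence beyond counting error. Developmental transcription factors of the list were nearest to 8 regions (2.87%, 1.25 to 5.57; 2.31% of bases), among them Pax1 (30.6-fold), Meis2 (14.4-fold), Pou3f4 with 2 (13.1 and 12.7-fold) and Twist1, a mesodermal factor (9.67-fold). The nearest of these was 50.2 kb from its start, at Pou3f4. Developmental regulators outside the list included Klf4 (24.1-fold), Eya4 (21.0-fold) and Foxp2 (14.9-fold). Signalling ligands were nearest to 2 (0.717%, 0.0869 to 2.57; 0.445% of bases), Inhba and Fgf9. No region had a Hox gene, a muscle contractile gene or a myogenic regulator as its nearest gene, and these families are nearest to 0.0330%, 0.0416% and 0.145% of intergenic bases. Given 0 of 279 regions, shares of up to 1.31% (exact 95% interval) are allowed, so no depletion can be read. The member nearest to Hoxa9 was 2336 kb away, to Hoxd10 6135 kb, to the satellite cell factor Pax7 5642 kb, to the myogenic factor Myod1 2039 kb, to skeletal actin Acta1 23642 kb and to muscle creatine kinase Ckm 1150 kb.

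Vomeronasal type 1 receptors, serpins, cytochrome P450 genes, major urinary and lipocalin genes, beta-defensins, killer lectin receptors, placental prolactin-like genes and Speer genes were nearest to none. Each of these families is nearest to under 0.5% of intergenic bases. In all, 252 different genes were nearest to the 279 regions, and 21 genes were nearest to more than 1. Regions lay upstream of the nearest start in 145 cases and downstream in 134, so neither side prevailed. Near genes and within 10 kb, 4 regions were neither LINE-1 nor satellite nor tandem repeat: those near Atg16l1, an autophagy gene (8.30-fold), Gm10800, Tmem125 (5.36-fold) and Olfr497 (13.96-fold).

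Chromosomes differed in density. Chromosome 4 held 26 regions, or 0.324 per Mb of intergenic sequence, followed by chromosomes 18 (0.275 per Mb) and 14 (0.265 per Mb). Chromosome X came next with 28 regions (0.252 per Mb). The lowest densities were 0.0745 per Mb on chromosome Y (6 regions), 0.0915 on chromosome 11 (5 regions) and 0.105 on chromosome 7 (7 regions). Chromosome X held 10.0% of the regions and 7.87% of intergenic bases, chromosome Y 2.15% and 5.70%. Fold enrichment did not follow this order: its median was 12.2 on X, 12.9 on Y and 12.1 on the autosomes. These counts come from 1 library and no test was run on them.

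**Figure D5:**
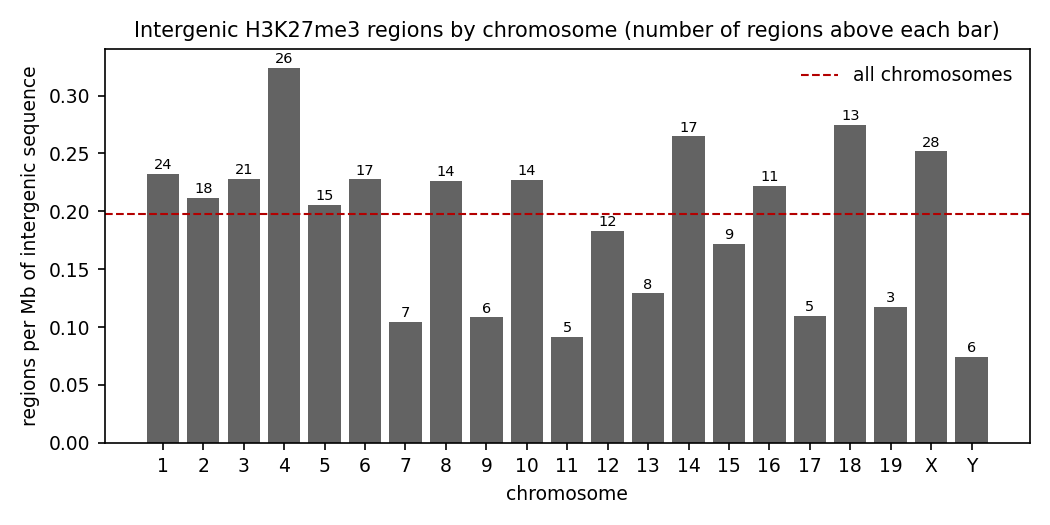
Intergenic H3K27me3 regions per Mb of intergenic sequence on each chromosome, with the number of regions above each bar and the value over all chromosomes as a dashed line. Chromosome 4 is the highest at 0.324 per Mb and chromosome Y the lowest at 0.0745 per Mb.

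The regions were mostly scattered singly. The nearest other member was a median of 2155 kb away (interquartile range 663 to 5498 kb). Chained at gaps of up to 100 kb, 15 regions (5.38%, 3.04 to 8.71) formed 6 clusters. The tightest was the repeat array near H60c at the start of chromosome 10, chr10:3109964-3116804, with 4 regions of 4.93 to 13.3-fold. The largest on LINE-1 held 3 regions within 28.4 kb near Tdrd3, at chr14:87827081-87855766, with folds of 32.6, 8.81 and 21.4. The first and second of these lay 1.26 kb apart and lacked 112 and 56 bases. Pairs lay near Igfbp7, a growth factor binding protein (20.5 and 24.9-fold), Fabp5, a fatty acid binding protein (18.9 and 10.4-fold), Pou3f4, and Pcdh7 (11.7 and 17.7-fold). At gaps of up to 1 Mb, 96 regions (34.4%) formed 43 clusters of at most 5. No expected share for as many intergenic places was computed, so the cluster shares are descriptions. The median fold was 13.1 (interquartile range 9.59 to 19.7) in the 100 kb clusters and 12.0 (9.05 to 18.0) outside them, so the ranges overlapped.

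Few regions held a GR peak of GR(i)skm-/- muscle, though a larger share than of intergenic windows. A GR peak overlapped 5 of 279 regions (1.79%, 0.584 to 4.13), 5 of 14135 grid windows (0.0354%, 0.0115 to 0.0825) and 9 of the 118 other nuclear regions (7.63%, 3.55 to 13.99), and a region overlapped 5 of 3087 GR peaks (0.162%). The 5 regions lay near Gpd2, a mitochondrial glycerol phosphate dehydrogenase, the predicted genes Gm14496 and Gm10800, Tro, which encodes trophinin, and Rab10. In the order Gpd2, Gm14496, Tro, Gm10800 and Rab10 they had H3K27me3 folds of 10.2, 8.34, 6.90, 3.40 and 3.84, all below the median of 12.2. By sequence, those near Gpd2 and Gm14496 were tandem repeats, and the one near Tro was classed as LINE-1, with 120 bases added. The region near Gpd2 had 232 bases added relative to an intact LINE-1 copy, and the other 3 had no matching pair of sides. Grid windows were not matched to members by sequence: 61.9% were unmasked and 0.156% tandem repeats, against 1.08% and 1.08% of members. The lists come from different genotypes and antibodies, so these are positions held in common and not a comparison of conditions.

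The length difference was not particular to intergenic sequence. Among the 118 other nuclear regions, 83 matched an intact LINE-1 copy with both sides, 79 of these had a length difference, and 77 (92.8%, 84.9 to 97.3) had its break within 20 bp of the midpoint. That share overlapped the 95.5% (92.2 to 97.8) of the intergenic regions. The missing stretch had a median of 35 bases there and 45 in the intergenic regions. LINE-1 covered 70.3% (61.2 to 78.4) of the other regions and 86.4% (81.8 to 90.2) of the intergenic ones, intervals that did not overlap.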

How the data were processed

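Nuclei of skeletal muscle were analysed by ChIP-seq, 1 library per group. Per the submitters' processing notes, bcl2fastq 2.17.1.14, Bowtie 1.0.0, MACS2 and the mm10 build were used. The MACS2 version, the control, and the handling of reads with several matches are not given in the sources used here. The authors' deposited list has 9 columns. The deposited score equals the -log10 q times 10, rounded. Its ratio is the authors' fold enrichment of a region, and the authors' -log10 p and q come from the caller. GR peaks were used for overlap of at least 1 bp only.

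Regions were placed by midpoint on GRCm38 with GENCODE vM21 and set beside every intergenic base, or a grid every 100 kb (for the whole-genome search of both sides, every 5th of its 2458 soft-masked windows outside LINE-1). Intact LINE-1 copies were stop-to-stop frames spanning 1200 codons or more that hold the FADD motif, of which 3020 had the commonest length and every 3rd, 1007 in all, entered the library. BLAST+ 2.17.0+, run without a filter for simple sequence, called LINE-1 at 50% of bases, ahead of the tandem class. Soft-masked, tandem and self-similar (satellite-like) sequence was classed from the genome. Where several places fitted equally well, the break was taken at their mean. The breakpoint search was tested on simulated copies. Intervals are Clopper-Pearson, exact, at 95% and for counting error alone, and no test was run. Members, gene lists and families were chosen with earlier results of these data known. Named genes follow a rule: neighbours of the 15 strongest and 3 weakest regions, of the 5 longest stretches and 5 largest clusters, up to 4 per family nearest to 3 or more regions, 6 set genes, and starts within 10 kb of regions outside LINE-1, satellites and tandem repeats; other names were chosen after their values were seen. Some genes and sequences that the rule names are not reported here. The list for multicopy genes of chromosome Y also took predicted genes of other chromosomes and was nearest to 6 regions (2.15%; 5.94% of bases). Alternatives covered the rule, the strength limit, the class, cluster and group limits. The work used scipy 1.17.1, pandas 2.3.3, numpy 2.4.6 and matplotlib 3.10.9 in Python 3.11.15.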

Additional observations from a re-analysis of the deposited data

How the results depend on the processing

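Of 31 alternatives, 16 left the value within its counting interval, or within 1.5 times for counts. Keeping only regions of -log10 q of at least 20 left 142 of 279 regions and moved the LINE-1 share to 92.3%, the median fold to 18.02, the share in sequence groups to 51.4% and the GR overlap to 2 regions; fewer regions enter by construction. To the nearest start of any gene type the median distance was 35.3 kb. The share in gene-free stretches was 40.1% at 1 Mb and 9.32% when genes of any type bound the stretch (6.01% of intergenic bases). Clusters held 34.4% of regions at a gap of 1 Mb. Sequence groups held 29.0% at 90% identity and 83.5% at 50% of the shorter region. For the share with a centred LINE-1 length difference, alternatives chosen after the data were seen gave 85.4% within 10 bp of the midpoint, 98.8% within 50 bp, 98.5% at a -log10 q of at least 20 and 98.6% where the sides were at least 98% identical. With 1 library no replicate could be left out, and no paired analysis was possible because no group had a second sample. The depth is unknown, so weak regions absent from the list cannot be told from unmarked sequence.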
